A study of Mus musculus with 12 samples.

Results

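Long intergenic noncoding RNAs (lincRNAs) are transcripts from genes that lie apart from protein-coding genes and are annotated as having no protein product. The members described here were selected on measured values: they are the rows of the count table with the gene type lincRNA in GENCODE M21 and a mean over the 12 samples of at least 1 CPM, the usual unit in which each count is scaled by the total of its sample, leaving out *H19*, *Meg3*, *Rian*, and *Mirg*. This gave 195 of 55536 genes in the table, out of 5854 lincRNA genes of which 2253 had any count. The selection used no comparison between groups, but a member can reach the threshold through 1 group alone, or through 2 groups together. Only the first kind was counted, here and below, so leaving these members out does not remove every effect of the selection. Without the Geltrex™ samples, 5 members had a mean under 1 CPM, *Carmn*, *Gm21718*, *Gm32219*, *Gm43660*, and *5430416N02Rik*, and a higher level on Geltrex™ is favored by the selection for these. The number was 3 without Collagen I, 2 without the control, and 1 without fibronectin. The members nearest the threshold were *Gm32219*, *Gm43660*, and *Gm21718* just inside it, at 1.01, 1.02, and 1.05 CPM, and *4932422M17Rik*, *AC165951.5*, and *C030034I22Rik* just outside it, at 0.999, 0.989, and 0.989 CPM. All 195 members passed the filter on low counts, all 195 had a count in every sample, and 187 had at least 10 counts in every sample.

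The RNA came from C2C12GFP cells, a line of mouse myoblasts that express green fluorescent protein and fuse into myotubes in low-serum medium. The 4 groups, with 3 samples in each, were cells differentiated on an uncoated surface, called control, or on a coating of Collagen I, fibronectin, or the basement membrane preparation Geltrex™. Collagen I and fibronectin are matrix proteins to which muscle cells attach, and the comparisons ask how the substrate changes the transcripts of the differentiating cells. All groups are 1 cell line, and the labels do not say that the 3 samples of a group came from separate cultures, so p-values measure only the spread between these samples, which may be technical.

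Total counts ran from 22520404 to 27351766 per sample, and the median member had 59 to 94 counts in a sample. Between samples of a group, the chi-square of the counts divided by its degrees of freedom was 23.7 to 34.0 in the control, 22.5 to 33.3 on fibronectin, and 2.23 to 4.81 on Geltrex™. Over all genes compared, the Geltrex™ samples were therefore much closer to each other than those of other groups. They were still further apart than sampling noise and were kept as 3 samples. On Collagen I the value was 8.29 between replicates 1 and 2 and 48.6 and 70.7 between either of them and replicate 3. Over the members alone, the value was 2.70, 10.8, and 6.52 between Geltrex™ samples and 2.53 between Collagen I replicates 1 and 2. It was 6.78 between fibronectin replicates 1 and 2 and 30.6 to 209 between all other pairs of a group. Collagen I replicate 3 stood apart, with 11.5% of its counts on genes of the mitochondrial genome against 6.90% and 6.39% in replicates 1 and 2, and results that rest on it are given with and without it.

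The myotube marker genes *Myog*, *Myh3*, *Myh8*, *Acta1*, *Ckm*, *Des*, *Mymk*, and *Tnnt3* were counted in all groups. Their summed level was 7312 ± 474 CPM (SD, n = 3) in control samples, 7452 ± 117 CPM in Collagen I samples, 2347 ± 202 CPM in fibronectin samples, and 3208 ± 144 CPM in Geltrex™ samples, with *Myh3*, the embryonic myosin heavy chain, the most abundant. All 8 were lower on fibronectin and on Geltrex™ than in the control at an edgeR adjusted p of at most 0.05. In bulk RNA, fewer myotubes and less RNA of a kind in each of them cannot be told apart, and this holds for every lincRNA below. Markers of other cell types were also counted. The summed levels were at most 0.474 CPM in any sample for 4 adipocyte genes and 0.147 CPM for 3 chondrocyte genes, with *Col9a1* at 0. The 5 blood genes reached 2.07 CPM, most of it *Cd68*, with *Adgre1* at 0, and the 4 endothelial genes 3.49 CPM, most of it *Tek*. The 4 osteoblast genes reached 6.47 CPM, most of it *Dmp1*, with *Ibsp* at 0, and the 4 neuron genes 58.5 CPM, nearly all *Tubb3*, with *Rbfox3* at 0. *Dmp1* was higher and *Tek* lower on Geltrex™ than in the control, *Tubb3* was higher on fibronectin, and the part of these markers in the results below was not tested.

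Some lincRNAs act in the nucleus as scaffolds for protein bodies or as silencers of the chromosome that makes them, and others act in the cytoplasm by binding proteins or miRNAs. A further class serves mainly as a precursor from which small RNAs are cut, and for many the act of transcription beside a coding gene is the only known feature. In muscle, the transcript that carries miR-206 and miR-133b is known for accumulating as myoblasts differentiate.

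Of the members, 11 hold an annotated miRNA gene on their own strand, and RefSeq (GRCm38.p6) had mature sequences for 10 of these hosts. The sequences below are those of 5 hosts that passed the test in at least 1 comparison, shown because the host is measured here and its mature product is not. They run 5′ to 3′, and the capitals mark the seed, bases 2 to 8, with which a miRNA pairs to its targets. *Gm28653* (GENCODE M21 on GRCm38, ENSMUSG00000099906, chr1:20669882-20684298, plus strand) holds both of the muscle miRNAs, with miR-206-3p at chr1:20679055-20679076 and miR-133b-3p at chr1:20682834-20682855 on the plus strand.
mmu-miR-206-3p: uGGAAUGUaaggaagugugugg
mmu-miR-133b-3p: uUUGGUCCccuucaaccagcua

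*6720427I07Rik* (ENSMUSG00000097375, chr13:48532905-48546500, minus strand) holds 3 let-7 genes, whose 5p products lie at chr13:48538239-48538260, chr13:48536078-48536099, and chr13:48537889-48537910 on the minus strand. The let-7 family is known for limiting proliferation. All 3 have the same seed.
mmu-let-7a-5p: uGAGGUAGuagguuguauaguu
mmu-let-7d-5p: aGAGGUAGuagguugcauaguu
mmu-let-7f-5p: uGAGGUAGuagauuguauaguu

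*AL805899.1* (ENSMUSG00000117123, chr4:88909855-88938521, minus strand) holds miR-31, with its 5p product at chr4:88910614-88910635, and *E130102H24Rik* (ENSMUSG00000086782, chr4:101346531-101356735, minus strand) holds miR-101a, with its 3p product at chr4:101346957-101346977, both on the minus strand. *C130071C03Rik* (ENSMUSG00000050334, chr13:83721381-83884194, plus strand) holds miR-9, a miRNA of the nervous system, at chr13:83738821-83738843 on the plus strand. Each of these has a seed of its own among the sequences shown.
mmu-miR-31-5p: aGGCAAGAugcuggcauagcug
mmu-miR-101a-3p: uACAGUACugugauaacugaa
mmu-miR-9-5p: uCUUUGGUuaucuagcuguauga

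*Gm28653* was counted at 59.6, 25.7, and 35.2 CPM in the control samples, 41.0, 40.8, and 44.8 CPM in the Collagen I samples, 10.7, 10.1, and 9.01 CPM in the fibronectin samples, and 4.57, 4.45, and 4.73 CPM in the Geltrex™ samples. The control and Collagen I samples were all above the fibronectin samples, and these were all above the Geltrex™ samples. Its log2 fold change over the control was -2.01 (SE 0.22, edgeR adjusted p = 4.36e-06) on fibronectin and -3.13 (SE 0.24, edgeR adjusted p = 8.49e-08) on Geltrex™, both from the quasi-likelihood test of edgeR, with p-values adjusted by Benjamini-Hochberg across every gene tested. Collagen I over control gave 0.071 (SE 0.20, edgeR adjusted p = 0.894), which did not pass. Fibronectin over Geltrex™ gave 1.12 (SE 0.25, edgeR adjusted p = 0.00459), and this difference did not pass with the 3 Geltrex™ samples summed into 1 (edgeR adjusted p = 0.0845). The nearest protein-coding gene, *Il17a*, lies 46607 bases away and had no count in any sample.

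The let-7 host *6720427I07Rik* had another order. It stood at 5.57, 3.08, and 4.71 CPM in the control samples, 4.07, 4.87, and 4.18 CPM in the Collagen I samples, 1.93, 2.22, and 4.04 CPM in the fibronectin samples, and 6.66, 5.89, and 7.30 CPM in the Geltrex™ samples. All Geltrex™ samples were above all samples of the other groups, and the control samples overlapped those on fibronectin. Fibronectin over Geltrex™ was -1.27 (SE 0.25, edgeR adjusted p = 0.00185). Fibronectin over control was -0.70 (SE 0.25, edgeR adjusted p = 0.0465), a call that was lost with only the samples of both groups (edgeR adjusted p = 0.0945) and without control replicate 1 or 3, fibronectin replicate 1 or 2, Collagen I replicate 1 or 2, or any 1 Geltrex™ sample (edgeR adjusted p up to 0.210). Geltrex™ over control did not pass, at 0.57 (SE 0.24, edgeR adjusted p = 0.0761). Collagen I samples had more of this host than fibronectin samples, a call lost with only the samples of both groups. It was also lost without any 1 Collagen I sample, fibronectin replicate 1 or 2, or Geltrex™ replicate 1 or 3 (edgeR adjusted p up to 0.171).

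The miR-31 host *AL805899.1* stood at 7.68, 5.58, and 8.54 CPM in the control samples, 5.42, 5.91, and 8.97 CPM in the Collagen I samples, 2.90, 6.15, and 4.74 CPM in the fibronectin samples, and 3.03, 3.63, and 2.75 CPM in the Geltrex™ samples. The Geltrex™ samples were below all control and Collagen I samples and overlapped fibronectin replicate 1. It fell by 1.20 on the log2 scale (SE 0.26, edgeR adjusted p = 0.00208) on Geltrex™ against the control, while fibronectin over control did not pass, at -0.66 (SE 0.25, edgeR adjusted p = 0.0524). The miR-101a host *E130102H24Rik* was counted at 3.90, 3.04, and 3.27 CPM in the control samples, 2.90, 3.31, and 2.37 CPM in the Collagen I samples, 2.12, 2.01, and 3.69 CPM in the fibronectin samples, and 1.07, 1.03, and 1.13 CPM in the Geltrex™ samples. Its Geltrex™ samples were below every other sample, with a log2 fold change of -1.66 (SE 0.26, edgeR adjusted p = 1.18e-04) against the control, and 1.28 (SE 0.26, edgeR adjusted p = 0.00273) for fibronectin over Geltrex™, which did not pass with the Geltrex™ samples summed (edgeR adjusted p = 0.0604). The miR-9 host *C130071C03Rik* was higher on fibronectin than on Geltrex™ (log2 fold change 1.18, SE 0.25, edgeR adjusted p = 0.00354), and 23.4% of its exonic bases are shared with a gene on the other strand, so its counts are uncertain. It was lower on Geltrex™ than in the control (log2 fold change -0.76, SE 0.26, edgeR adjusted p = 0.0314), a call lost without control replicate 1 or 2 or Geltrex™ replicate 2 or 3 and with the Geltrex™ samples summed (edgeR adjusted p up to 0.144). It was also lower on Collagen I than on fibronectin (log2 fold change -0.67, SE 0.24, edgeR adjusted p = 0.0312), a call lost without Collagen I replicate 1 or 3 or fibronectin replicate 1 or 2 (edgeR adjusted p up to 0.14).

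The host *2900076A07Rik*, of miR-1839, fell by 1.18 on the log2 scale (SE 0.30, edgeR adjusted p = 0.00736) on fibronectin against the control. It was also lower on Geltrex™ than in the control (log2 fold change -0.93, SE 0.30, edgeR adjusted p = 0.0245), a call lost without control replicate 1, without any 1 Geltrex™ sample, and with these summed (edgeR adjusted p up to 0.173). Collagen I samples had more of it than fibronectin samples (log2 fold change 1.24, SE 0.30, edgeR adjusted p = 0.00371) and than Geltrex™ samples (log2 fold change 0.99, SE 0.30, edgeR adjusted p = 0.0161), the second lost without Geltrex™ replicate 1 or with the Geltrex™ samples summed (edgeR adjusted p up to 0.135). The hosts *Mir155hg* and *Mir17hg*, at 1.28 and 1.09 CPM, did not pass the edgeR test in any of the 6 comparisons, nor did *Ftx*, which holds miR-374b and miR-421. *A930003A15Rik*, which holds the predicted miRNA gene *Gm27883*, was higher on Geltrex™ than in the control (log2 fold change 0.60, SE 0.17, edgeR adjusted p = 0.0121). That call was lost without control replicate 3 or Geltrex™ replicate 2 (edgeR adjusted p = 0.0507 and 0.0589) and with the 3 Geltrex™ samples summed. It was also higher on Geltrex™ than on fibronectin. This second call was lost without fibronectin replicate 1 or 2 or Geltrex™ replicate 2 or 3 (edgeR adjusted p up to 0.133), and with the Geltrex™ samples summed.

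Other members are hosts of small nucleolar RNAs (snoRNAs), which guide the modification of ribosomal RNA. *Snhg12*, *Snhg18*, *Snhg6*, and *Epb41l4aos*, at means of 6.29, 6.24, 5.37, and 1.47 CPM, did not pass the edgeR test in any of the 6 comparisons. *Snhg20*, which holds a snoRNA gene and miR-6516, fell by 1.13 on the log2 scale (SE 0.37, edgeR adjusted p = 0.0272) on Geltrex™ against the control. That call was lost without control replicate 1 or 3 or Geltrex™ replicate 2 or 3 (edgeR adjusted p up to 0.113), and with the Geltrex™ samples summed. *Snhg20* was also higher on Collagen I than on Geltrex™, a call lost without Collagen I replicate 3 (edgeR adjusted p = 0.0671) and with the Geltrex™ samples summed.

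**Figure D1:**
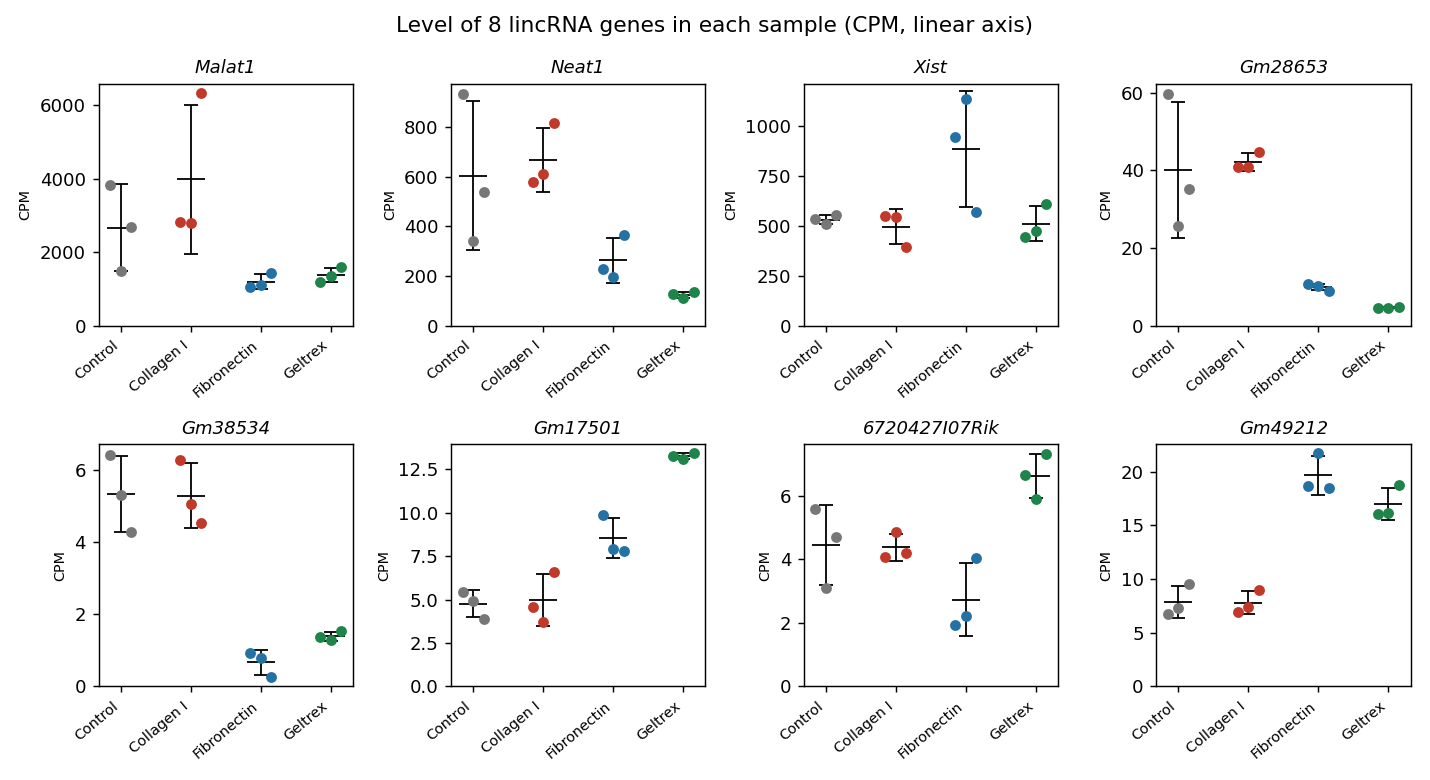
CPM in each of the 12 samples for 8 lincRNA genes, on linear axes that start at 0. Points are samples, the wide bar is the group mean, and the whiskers are 1 SD (n = 3); *Gm28653*, *Gm38534*, and *Neat1* are low on fibronectin and Geltrex™, *Gm49212* is high on both, and *Gm17501* is highest on Geltrex™.

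Members took up a small share of the counts. Their sum was 0.762%, 0.421%, and 0.567% of all counts in the control samples, 0.601%, 0.613%, and 0.945% on Collagen I, 0.406%, 0.418%, and 0.417% on fibronectin, and 0.337%, 0.351%, and 0.394% on Geltrex™. The group means were 0.583% ± 0.171 (SD, n = 3), 0.720% ± 0.196 (SD, n = 3), 0.414% ± 0.00708 (SD, n = 3), and 0.361% ± 0.0298 (SD, n = 3) in that order, and the Collagen I mean was 0.607% without replicate 3. Every fibronectin sample was below every control and Collagen I sample, and every Geltrex™ sample was below every fibronectin sample. The exact two-sided permutation test gave p = 0.1 for each of these differences, the smallest that 3 samples against 3 can give, and p = 0.400 for Collagen I against the control.

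Genes of the mitochondrial genome held 6.81% ± 1.58 (SD, n = 3) of all counts in the control, 8.25% ± 2.80 (SD, n = 3) on Collagen I, 5.60% ± 0.909 (SD, n = 3) on fibronectin, and 5.90% ± 0.260 (SD, n = 3) on Geltrex™. Without replicate 3 the Collagen I mean was 6.65%, below that of the control. Control replicate 2, at 5.14%, was the lowest of its group in this share and in that of the members, and Collagen I replicate 3 was the highest of all samples in both. The part of the mitochondrial share in that of the members was not tested.

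*Malat1*, *Neat1*, and *Xist* made up most of the summed share of the members. The remaining members held 0.197% ± 0.0113 (SD, n = 3) of counts in the control, 0.200% ± 0.00509 (SD, n = 3) on Collagen I, 0.183% ± 0.00335 (SD, n = 3) on fibronectin, and 0.162% ± 0.00257 (SD, n = 3) on Geltrex™. Geltrex™ was lowest without these 3 genes too, and the samples of fibronectin and Geltrex™ did not overlap with each other or with those of the other groups. The exact permutation p was 0.1 again, the smallest possible, for every pair of groups but Collagen I and control, where it was 0.600.

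**Figure D2:**
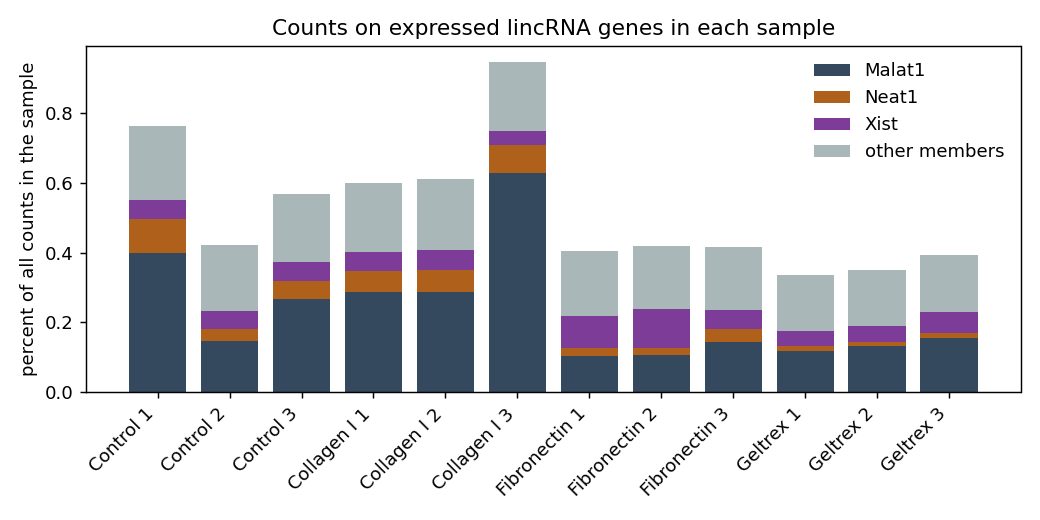
Percent of all counts in each sample that fell on *Malat1*, *Neat1*, *Xist*, and the other members, stacked. Collagen I replicate 3 is the highest bar, at 0.945%, and the fibronectin and Geltrex™ bars are below all bars of the control and Collagen I.

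Levels between genes are compared per kilobase (kb) of exon. The median member had 1.66 CPM per kb, against 6.69 CPM per kb for the 11453 protein-coding genes with a mean of at least 1 CPM. *Malat1* had the highest level, at 330.4 CPM per kb, followed by *2900097C17Rik* (*Norad* in RefSeq) at 54.5, *Gm47015* at 51.1, *Gm49212* at 50.5, *Gm36377* at 49.4, and *Bc1* at 47.4 CPM per kb. Next came *Xist* at 33.7, *1700020I14Rik* (*Oip5os1* in RefSeq) at 30.8, *Gm14221* at 30.3, and *Gm32618* at 24.8 CPM per kb. These are means over the 12 samples, and the order after *Malat1* differed between groups. In the control, on Collagen I, on fibronectin, and on Geltrex™, *Gm49212* had 30.3, 30.0, 75.9, and 65.7 CPM per kb. In that order, *2900097C17Rik* had 57.0, 53.4, 58.1, and 49.6, and *Gm47015* had 62.3, 55.9, 42.9, and 43.2 CPM per kb. By CPM without regard to length, 6 members had a mean of at least 100, 37 a mean of at least 10, and 63 a mean under 2.

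The members lay on 20 chromosomes, 36 of them with a single exon, and had a median of 2348 exonic bases against 4644 for the same protein-coding genes. The GC content of the longest transcript had a median of 45.9% against 49.5%. RefSeq named 131 of them, 113 as noncoding RNA, 15 as protein-coding, and 3 as pseudogenes, so the gene type that defined the members is not settled for all. *1810058I24Rik*, at 41.8 CPM, is one that RefSeq lists as protein-coding. 56 members shared exonic bases with another gene on either strand. The sources used here do not say whether the counting used strand, so the counts of those members are uncertain, and each group of results is also counted over the 139 others. The median SD of log2 CPM between samples of a group was 0.23 in the control and 0.18 on Geltrex™ over the members, against 0.16 and 0.080 over all genes tested.

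*Malat1* (GRCm38, ENSMUSG00000092341, chr19:5795690-5802672, minus strand) and *Neat1* (ENSMUSG00000092274, chr19:5824708-5845478, minus strand) lie 22036 bases apart on the same strand. The first is an abundant nuclear RNA of the nuclear speckles, where splicing factors gather, and the second is the scaffold of paraspeckles. *Malat1* stood at 3834, 1486, and 2694 CPM in the control samples, 2822, 2804, and 6323 CPM in the Collagen I samples, 1052, 1114, and 1432 CPM in the fibronectin samples, and 1197, 1340.1, and 1585 CPM in the Geltrex™ samples. Collagen I replicate 3 had the highest level by far, and control replicate 2 was close to the fibronectin and Geltrex™ samples. Fibronectin over control was -1.16 (SE 0.31, edgeR adjusted p = 0.00997), and the call was lost without control replicate 1 (edgeR adjusted p = 0.0671). Geltrex™ over control was -0.96 (SE 0.31, edgeR adjusted p = 0.0254) with overlapping groups, and it did not pass with DESeq2 (adjusted p = 0.0728) or without control replicate 1 (edgeR adjusted p = 0.149), control replicate 3 (0.0552), Geltrex™ replicate 1 (0.0965), or Geltrex™ replicate 2 (0.0778), or with the 3 Geltrex™ samples summed (0.234). Collagen I was higher than fibronectin by 1.73 (SE 0.31, edgeR adjusted p = 4.47e-04) and higher than Geltrex™ by 1.54 (SE 0.31, edgeR adjusted p = 0.00127) on the log2 scale. Without Collagen I replicate 3 these values were 1.23 and 1.03, and both still passed, while the second did not pass with the Geltrex™ samples summed (edgeR adjusted p = 0.0567).

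*Neat1* stood at 934, 341, and 539.8 CPM in the control samples, 577, 611, and 817 CPM in the Collagen I samples, 227, 195, and 367 CPM in the fibronectin samples, and 126, 111, and 135 CPM in the Geltrex™ samples. All Geltrex™ samples were below all fibronectin samples, and control replicate 2 was below fibronectin replicate 3. It fell by 2.29 on the log2 scale (SE 0.29, edgeR adjusted p = 1.89e-05) on Geltrex™ against the control and was 2.43 (SE 0.29, edgeR adjusted p = 1.06e-05) on Collagen I over Geltrex™. On fibronectin it was -1.20 (SE 0.28, edgeR adjusted p = 0.00433) over the control. Fibronectin over Geltrex™ was 1.09 (SE 0.28, edgeR adjusted p = 0.0134), a call lost without fibronectin replicate 3 (edgeR adjusted p = 0.0546) or Geltrex™ replicate 2 (0.0613), or with the Geltrex™ samples summed (0.226). The whole gene was counted as 1 exon of 20771 bases, so its short and long forms were not separated.

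Genes for proteins of these bodies were counted as a list. Of 11 genes for paraspeckle proteins, 2 rose and 1 fell on fibronectin over control, and 3 rose and 1 fell on Geltrex™ over control, where 17.1% and 14.7% of all genes tested rose and fell on fibronectin and 16.4% and 16.6% on Geltrex™, so that these counts are near the background. The median log2 fold changes were 0.15 and 0.079, against -0.016 and -0.012 over all genes tested. *Hnrnpk*, the most abundant, rose by 0.28 on the log2 scale (SE 0.078, edgeR adjusted p = 0.0131) on fibronectin. *Hnrnph3*, a splicing regulator gene, was the one that fell, with -0.71 (SE 0.10, edgeR adjusted p = 4.06e-05) on fibronectin and -0.62 (SE 0.10, edgeR adjusted p = 1.22e-04) on Geltrex™, and *Rbm3*, a cold-inducible RNA-binding protein, rose by 0.40 on the log2 scale (SE 0.078, edgeR adjusted p = 8.28e-04) on Geltrex™. Of 12 genes for nuclear speckle proteins, 4 rose and 1 fell on fibronectin, 4 passed on Geltrex™, all of them higher, and 3 passed on Collagen I, all of them lower, with medians of 0.10, 0.20, and -0.16. Over all genes tested, 0.917% were lower on Collagen I. *Srrm2*, a scaffold of the speckles, had 0.51 (SE 0.10, edgeR adjusted p = 6.75e-04) on Geltrex™. The splicing factor gene *Srsf5* fell by 0.55 on the log2 scale (SE 0.087, edgeR adjusted p = 0.00532) on Collagen I and rose by 0.49 on the log2 scale (SE 0.087, edgeR adjusted p = 3.90e-04) on Geltrex™.

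*Xist* (GRCm38, ENSMUSG00000086503, chrX:103460366-103483254, minus strand) coats and silences the X chromosome that transcribes it. It stood at 535, 507, and 552 CPM in the control samples, 548, 545, and 394 CPM in the Collagen I samples, 947, 1137, and 569 CPM in the fibronectin samples, and 445, 476, and 611 CPM in the Geltrex™ samples. Fibronectin replicates 1 and 2 were above every other sample, and fibronectin replicate 3 overlapped the Geltrex™ range. Fibronectin over control was 0.73 (SE 0.19, edgeR adjusted p = 0.00902), which did not pass without fibronectin replicate 2 (edgeR adjusted p = 0.0594). Collagen I over fibronectin was -0.83 (SE 0.19, edgeR adjusted p = 0.00278), and fibronectin over Geltrex™ was 0.79 (SE 0.19, edgeR adjusted p = 0.00907), of which the second was lost without fibronectin replicate 2 (0.0597) or Geltrex™ replicate 1 (0.0563), and with the Geltrex™ samples summed (0.161). Its exons share 12.6% of their bases with other genes, chiefly *Tsix* on the opposite strand, which was at 0.00996 CPM.

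*Jpx* and *Ftx* come from the same X-inactivation center. *Jpx* stood at 5.69, 3.23, and 3.69 CPM in the control samples, 4.25, 4.20, and 4.36 CPM in the Collagen I samples, 1.93, 2.80, and 3.07 CPM in the fibronectin samples, and 2.48, 3.13, and 2.30 CPM in the Geltrex™ samples. Its log2 fold change over the control was -0.69 (SE 0.22, edgeR adjusted p = 0.0279) on fibronectin and -0.67 (SE 0.23, edgeR adjusted p = 0.0331) on Geltrex™, and neither call held without control replicate 1 (edgeR adjusted p = 0.195 and 0.207). They were also lost without fibronectin replicate 1 (0.134) or with only the samples of both groups (0.0616) for the first, and without Geltrex™ replicate 1 or 3 (0.106 and 0.122) or with the Geltrex™ samples summed (0.198) for the second. *Jpx* was also called higher on Collagen I than on fibronectin, a call lost without fibronectin replicate 1 (edgeR adjusted p = 0.0878). It was called higher on Collagen I than on Geltrex™ too. That call was lost without Collagen I replicate 1 or 3 or Geltrex™ replicate 1 or 3 (edgeR adjusted p up to 0.0993), and with the Geltrex™ samples summed. *Ftx* was at 9.03 ± 2.29 CPM (SD, n = 3) in the control and 7.13 ± 0.790 CPM on fibronectin. Of 13 tested genes for proteins that bind or act with *Xist*, 4 passed on fibronectin over control and 3 on Geltrex™ over control, all of them higher, with medians of 0.13 and 0.13. Of all genes tested, 17.1% and 16.4% were higher in these comparisons. On fibronectin, *Lbr*, the gene of a receptor that ties *Xist* to the nuclear lamina, rose by 0.62 on the log2 scale (SE 0.12, edgeR adjusted p = 0.00123), and *Smchd1*, a gene for a chromatin protein of the inactive X, rose by 0.61 on the log2 scale (SE 0.15, edgeR adjusted p = 0.00496).

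Some members have known cytoplasmic roles. *2900097C17Rik* (*Norad*), which binds Pumilio proteins, stood at 280.0 ± 20.7, 262 ± 7.64, 286 ± 22.9, and 244 ± 8.04 CPM (SD, n = 3) in the control, on Collagen I, in fibronectin samples, and in Geltrex™ samples, and did not pass the edgeR test in any of the 6 comparisons. *1700020I14Rik* (*Oip5os1*, known as Cyrano), which carries a site for miR-7, was higher on fibronectin than on Geltrex™, at 0.56 (SE 0.12, edgeR adjusted p = 0.00405), but not with the Geltrex™ samples summed (edgeR adjusted p = 0.142). On Collagen I over Geltrex™ it had 0.33 (SE 0.12, edgeR adjusted p = 0.0411), a call lost with RLE normalization, without control replicate 3, Collagen I replicate 1 or 2, fibronectin replicate 1, or any 1 Geltrex™ sample, and with these summed (edgeR adjusted p up to 0.303). *Bc1*, a short RNA best known from neurons, did not pass either, with 6.99 ± 1.64 CPM in the control and 8.11 ± 1.09 CPM on Geltrex™.

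Among members named for development, *Hotair*, from the Hoxc cluster, stood at 6.48, 6.75, and 7.47 CPM in the control samples, 7.97, 7.25, and 7.16 CPM in the Collagen I samples, 5.94, 6.78, and 5.86 CPM in the fibronectin samples, and 3.59, 4.20, and 4.46 CPM in the Geltrex™ samples. The Geltrex™ samples were below all others, with a log2 fold change of -0.76 (SE 0.13, edgeR adjusted p = 4.15e-04) over the control and 0.60 (SE 0.14, edgeR adjusted p = 0.00534) for fibronectin over Geltrex™, the second of which did not pass with the 3 Geltrex™ samples summed into 1 (edgeR adjusted p = 0.0911). *Carmn*, a transcript of heart and smooth muscle precursors, went the other way, at 1.31, 0.660, and 0.934 CPM in the control samples, 0.607, 0.557, and 1.47 CPM in the Collagen I samples, 0.594, 0.419, and 0.660 CPM in the fibronectin samples, and 2.18, 2.22, and 2.03 CPM in the Geltrex™ samples. It reached the threshold through its Geltrex™ samples, with a mean of 0.805 CPM in the others, so that its higher level there is favored by the selection. It was higher on Geltrex™ than on fibronectin, where the log2 fold change of fibronectin over Geltrex™ was -1.93 (SE 0.36, edgeR adjusted p = 0.00139). Its change of 1.15 (SE 0.34, edgeR adjusted p = 0.0158) over the control was lost without control replicate 2 (edgeR adjusted p = 0.0633) or with the Geltrex™ samples summed (0.124). *Bvht*, the Braveheart transcript beside it on the other strand, passed only on Collagen I over fibronectin (log2 fold change 0.80, SE 0.28, edgeR adjusted p = 0.0291), and this was lost without any 1 of the Collagen I samples or without fibronectin replicate 2 or 3 (edgeR adjusted p up to 0.116). *Pvt1*, 47612 bases downstream of *Myc*, had 0.27 (SE 0.13, edgeR adjusted p = 0.125) on Geltrex™ over control and did not pass. It was lower on Collagen I than on fibronectin (log2 fold change -0.51, SE 0.13, edgeR adjusted p = 0.00567) and than on Geltrex™ (log2 fold change -0.52, SE 0.13, edgeR adjusted p = 0.0063), the second lost with the Geltrex™ samples summed (edgeR adjusted p = 0.0757). *Myc* itself was at 16.4, 12.3, and 15.4 CPM in the control samples, 15.3, 13.2, and 13.4 CPM in the Collagen I samples, 9.51, 12.5, and 20.2 CPM in the fibronectin samples, and 106, 97.0, and 96.4 CPM in the Geltrex™ samples and rose by 2.77 on the log2 scale (SE 0.19, edgeR adjusted p = 3.32e-08).

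Collagen I and the control differed at 1 member. *Gm14635* (GRCm38, ENSMUSG00000087591, chrX:12339782-12354996, minus strand) stood at 13.9, 13.9, and 13.5 CPM in the control samples, 9.36, 7.43, and 8.93 CPM in the Collagen I samples, 6.02, 5.32, and 4.47 CPM in the fibronectin samples, and 5.72, 5.60, and 5.05 CPM in the Geltrex™ samples. All Collagen I samples were below all control samples, with a log2 fold change of -0.68 (SE 0.13, edgeR adjusted p = 0.0145), and the call was lost without control replicate 2 (edgeR adjusted p = 0.0626), without Collagen I replicate 2 (0.0787), and with only the samples of both groups in the fit (0.0677). In all, 1 of 195 members was lower on Collagen I, where 0.917% of all 14499 genes tested were lower, and 0 were higher, where 0.200% of all genes were. Both shares are close to the background. At an unadjusted p under 0.05 in edgeR, 16 members were higher and 7 lower, where 6.46% and 8.32% of all genes tested were. DESeq2 called 0 higher and 1 lower, where 0.865% and 2.66% of all genes were. With edgeR and a fold change of at least 2, 0 were higher and 0 lower, where 0.0207% and 0.110% of all genes were. Without the filter on low counts, edgeR called 2 higher, where 0.689% of all genes were. Members with no shared exonic base gave 0 higher and 1 lower in edgeR. The median log2 fold change was 0.029 over the members and -0.0031 over all genes tested. The member median ranged from -0.034 to 0.11 over the alternatives run for it and was negative without control replicate 2.

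On fibronectin over control, the members with the lowest log2 fold changes among those that passed and whose groups did not overlap were *Gm38534*, *5430431A17Rik*, *5730419F03Rik*, *Gm5532*, and *Gm28653*. *Gm38534* (GRCm38, ENSMUSG00000108634, chr11:88253368-88256990, plus strand) stood at 6.40, 5.32, and 4.29 CPM in the control samples, 6.28, 5.05, and 4.53 CPM in the Collagen I samples, 0.928, 0.795, and 0.272 CPM in the fibronectin samples, and 1.37, 1.28, and 1.53 CPM in the Geltrex™ samples. The fibronectin samples were below the Geltrex™ samples, and both were below all others, with a log2 fold change of -2.99 (SE 0.29, edgeR adjusted p = 1.44e-06). *Gm5532* fell by 2.25 on the log2 scale (SE 0.22, edgeR adjusted p = 1.37e-06), and *5730419F03Rik* fell by 2.34 on the log2 scale (SE 0.27, edgeR adjusted p = 7.72e-06). *5430431A17Rik* had -2.41 (SE 0.55, edgeR adjusted p = 0.00366) with a wide spread in the control, at 11.1, 1.76, and 4.84 CPM.

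The highest were *Gm42476*, *D5Ertd615e*, *Gm49212*, *AC132253.6*, and *Lockd*. *Gm49212* (GRCm38, ENSMUSG00000115678, chr15:56046552-56049832, minus strand), the most abundant of them per kb, stood at 6.72, 7.26, and 9.55 CPM in the control samples, 6.98, 7.36, and 9.01 CPM in the Collagen I samples, 18.7, 21.8, and 18.5 CPM in the fibronectin samples, and 16.1, 16.2, and 18.8 CPM in the Geltrex™ samples. All fibronectin and Geltrex™ samples were above all control and Collagen I samples, and it rose by 1.33 on the log2 scale (SE 0.14, edgeR adjusted p = 3.81e-06). *Gm42476* rose by 2.13 on the log2 scale (SE 0.32, edgeR adjusted p = 1.43e-04) and *D5Ertd615e* by 2.01 on the log2 scale (SE 0.29, edgeR adjusted p = 7.52e-05), both from under 1 CPM in every control sample. For both genes, a higher level on fibronectin and Geltrex™ together may be favored by the selection. *AC132253.6* rose by 1.18 on the log2 scale (SE 0.30, edgeR adjusted p = 0.00764). *Lockd*, which lies downstream of the cell cycle inhibitor gene *Cdkn1b*, rose by 1.07 on the log2 scale (SE 0.31, edgeR adjusted p = 0.0141), which did not pass without control replicate 1 (edgeR adjusted p = 0.0552).

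Over all members, 21 were higher on fibronectin than in the control, 10.8% against 17.1% of all genes tested, and 36 were lower, 18.5% against 14.7%. Of these, 20 and 32 had groups that did not overlap, but the matching share over all genes tested is not given here. Nothing particular to the members is read from these 2 counts. The median log2 fold change was -0.12 over the members, -0.016 over all genes tested, and 0.0061 over protein-coding genes with a mean of at least 1 CPM, of which 20.5% were higher and 15.7% lower. The member median ranged from -0.15 to -0.053 over the alternatives run for it. Among the 139 members with no shared exonic base, 17 were higher and 27 lower. Leaving out members that reach 1 CPM only through the group where they are higher, the counts were 20 and 35. At a fold change of at least 2, 8 were higher and 21 lower, where 2.42% and 4.23% of all genes tested were.

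On Geltrex™ over control, *Gm28653* had the lowest log2 fold change, followed by *Gm42743*, *AI480526*, *Gm37565*, and *Neat1*. *AI480526* stood at 6.12, 2.64, and 4.50 CPM in the control samples, 4.07, 4.09, and 5.39 CPM in the Collagen I samples, 1.75, 1.97, and 3.46 CPM in the fibronectin samples, and 0.598, 0.577, and 0.902 CPM in the Geltrex™ samples. The Geltrex™ samples were below all others, at -2.67 (SE 0.36, edgeR adjusted p = 2.93e-05), although 66.6% of its exonic bases are shared with lincRNA genes on the opposite strand, so its counts are uncertain. *Gm42743* fell by 2.77 on the log2 scale (SE 0.38, edgeR adjusted p = 3.62e-05) and shares 17.0% of its exonic bases, some with the histone gene *Hist2h2bb*, which was at 0 in all samples. *Gm37565* fell by 2.31 on the log2 scale (SE 0.35, edgeR adjusted p = 1.02e-04).

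The highest were *Gm42476*, *D5Ertd615e*, *Gm42047*, *Gm17501*, and *Gm21718*. *Gm17501* (GRCm38, ENSMUSG00000097183, chr3:145650312-145677580, plus strand) starts 331 bases from *Ccn1*, the gene of a matrix-associated signaling protein, and is transcribed away from it. It stood at 5.45, 4.92, and 3.91 CPM in the control samples, 4.59, 3.72, and 6.60 CPM in the Collagen I samples, 9.88, 7.91, and 7.81 CPM in the fibronectin samples, and 13.2, 13.1, and 13.4 CPM in the Geltrex™ samples. The Geltrex™ samples were highest and the fibronectin samples next, with no overlap, and it rose by 1.48 on the log2 scale (SE 0.18, edgeR adjusted p = 1.18e-05) on Geltrex™. *Gm42047* rose by 1.60 on the log2 scale (SE 0.21, edgeR adjusted p = 1.99e-05), and *Gm21718*, which reached the 1 CPM threshold only through its Geltrex™ samples and so is favored by the selection to be higher there, had 1.41 (SE 0.34, edgeR adjusted p = 0.00505), a call lost with the 3 Geltrex™ samples summed into 1 (edgeR adjusted p = 0.0581).

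Geltrex™ had 24 members higher than in the control, 12.3% against 16.4% of all genes tested, and 61 lower, 31.3% against 16.6%. With the 3 Geltrex™ samples summed into 1, a fit in which that group has a single sample, the counts were 15 and 32, where 7.30% and 5.97% of all genes tested in that fit were higher and lower. Leaving out members that reach 1 CPM only through the group where they are higher, the counts were 20 and 59. The median was -0.20 over the members, -0.012 over all genes tested, and 0.0042 over the protein-coding genes, of which 18.7% were higher and 17.4% lower. Members with no shared exonic base gave 19 higher and 45 lower. A fold change of at least 2 left 15 higher and 31 lower, where 4.15% and 4.99% of all genes tested were.

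Comparing Collagen I to fibronectin and to Geltrex™ uses the same samples as those above, so their values are given side by side and are not independent of them. Against fibronectin, the highest log2 fold changes on Collagen I were those of *5430431A17Rik* (log2 fold change 3.14, SE 0.54, edgeR adjusted p = 2.92e-04), *Gm38534* (2.98), *5730419F03Rik* (2.14), *Gm28653* (2.09), and *Gm5532* (2.04). The lowest were those of *AC132253.6* (log2 fold change -1.95, SE 0.33, edgeR adjusted p = 2.54e-04), *D5Ertd615e* (-1.84), *Gm42476* (-1.58), *Lockd* (-1.37), and *Gm49212* (-1.34). There were 50 members higher on Collagen I, 25.6% against 22.1% of all genes tested, and 25 lower, 12.8% against 22.9%. The median was 0.18 over the members, with a range of 0.11 to 0.24 over the alternatives, and 0.022 over all genes tested. Without Collagen I replicate 3 the counts were 42 higher and 17 lower, where 17.5% and 18.8% of all genes tested were. Leaving out members that reach 1 CPM only through the group where they are higher, the counts were 49 and 25. Members with no shared exonic base gave 39 higher and 17 lower. At a fold change of at least 2, 20 were higher and 8 lower, where 4.86% and 3.60% of all genes tested were.

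Against Geltrex™, the highest were *Gm28653* (log2 fold change 3.20, SE 0.24, edgeR adjusted p = 5.93e-08), *5430431A17Rik* (2.80), *AI480526* (2.70), *Neat1* (2.43), and *Gm42743* (2.27). The lowest were *Gm42047* (log2 fold change -2.01, SE 0.21, edgeR adjusted p = 2.94e-06), *1700001L05Rik* (-1.80), *AC132253.6* (-1.67), *D5Ertd615e* (-1.62), and *Gm17501* (-1.42). There were 64 members higher on Collagen I, 32.8% against 18.2% of all genes tested, and 25 lower, 12.8% against 19.0%. With the Geltrex™ samples summed, 31 were higher and 11 lower, where 5.57% and 8.03% of all genes were. The median was 0.30 over the members and 0.026 over all genes tested, and without Collagen I replicate 3 the counts were 62 and 20, where 14.9% and 15.9% of all genes were. Leaving out members that reach 1 CPM only through the group where they are higher, the counts were 61 and 21. Members with no shared exonic base gave 47 higher and 18 lower. At a fold change of at least 2, 32 were higher and 11 lower, where 4.77% and 4.56% of all genes tested were.

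Fibronectin and Geltrex™ were compared with each other on the samples already used above. *1700001L05Rik* (GRCm38, ENSMUSG00000075511, chr15:83353847-83367282, minus strand) stood at 3.10, 3.26, and 2.59 CPM in the control samples, 1.82, 1.75, and 2.67 CPM in the Collagen I samples, 3.19, 2.64, and 3.11 CPM in the fibronectin samples, and 6.83, 6.80, and 8.07 CPM in the Geltrex™ samples. The Geltrex™ samples were all above every other sample, and fibronectin over Geltrex™ was -1.28 (SE 0.17, edgeR adjusted p = 8.99e-05), while fibronectin over control was -0.0039 and did not pass. *AC132253.9* stood at 4.77, 5.36, and 5.39 CPM in the control samples, 3.77, 4.05, and 4.44 CPM in the Collagen I samples, 6.80, 7.45, and 5.24 CPM in the fibronectin samples, and 2.31, 1.98, and 3.43 CPM in the Geltrex™ samples. Here the Geltrex™ samples were lowest, with 1.34 (SE 0.19, edgeR adjusted p = 1.52e-04). The other members with the highest values were *AI480526* (1.79), *Gm42743* (1.44), *Gm20939* (1.40), and *Prr33* (1.32), and the lowest after *Carmn* were *Gm43660* (-1.57), which like *Carmn* reached the threshold through Geltrex™, *6720427I07Rik*, and *Gm17315* (-1.13). The call of *Gm42743* was lost without fibronectin replicate 1 or 2 or Geltrex™ replicate 1 or 3 and with the Geltrex™ samples summed (edgeR adjusted p up to 0.126), and the sum also ended the calls of *Prr33*, *Gm43660*, and *Gm17315* (0.0647, 0.0737, and 0.0954). Of the members, 31 were higher on fibronectin, 15.9% against 10.3% of all genes tested, and 15 were lower, 7.69% against 9.06%. The counts were 18 and 9 without Geltrex™ replicate 1, where 5.96% and 5.60% of all genes were higher and lower. They were 8, 7, and 7 lower without fibronectin replicate 2, Geltrex™ replicate 2, or Geltrex™ replicate 3, where 5.71%, 5.82%, and 5.75% of all genes were lower. With the Geltrex™ samples summed, 8 members were higher and 3 lower, where 2.21% and 2.28% of all genes were. Leaving out members that reach 1 CPM only through the group where they are higher, the counts were 31 and 13. Members with no shared exonic base gave 21 higher and 12 lower. At a fold change of at least 2, 12 were higher and 6 lower, where 1.72% and 2.26% of all genes tested were. The median was 0.087 over the members, with a range of 0.054 to 0.12 over the alternatives, and -0.0049 over all genes tested.

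**Figure D3:**
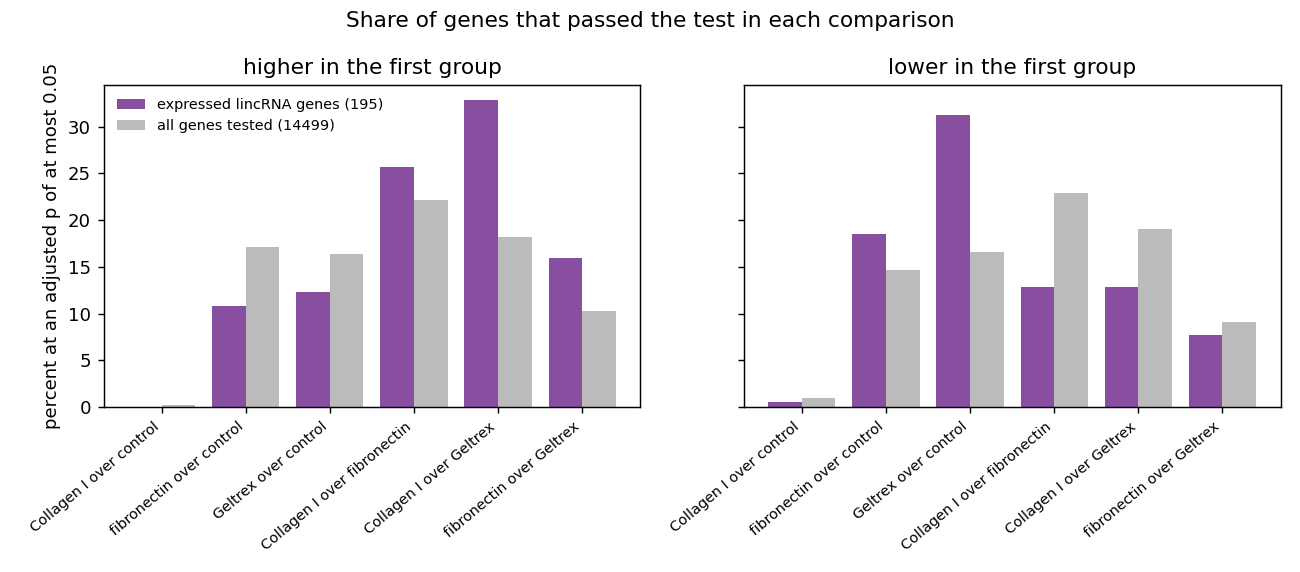
Percent of the 195 members and of all 14499 genes tested that were higher (left) or lower (right) in the first group named, at an adjusted p of at most 0.05. On Geltrex™ over control the lower bar of the members is 31.3% and that of all genes 16.6%.

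**Figure D4:**
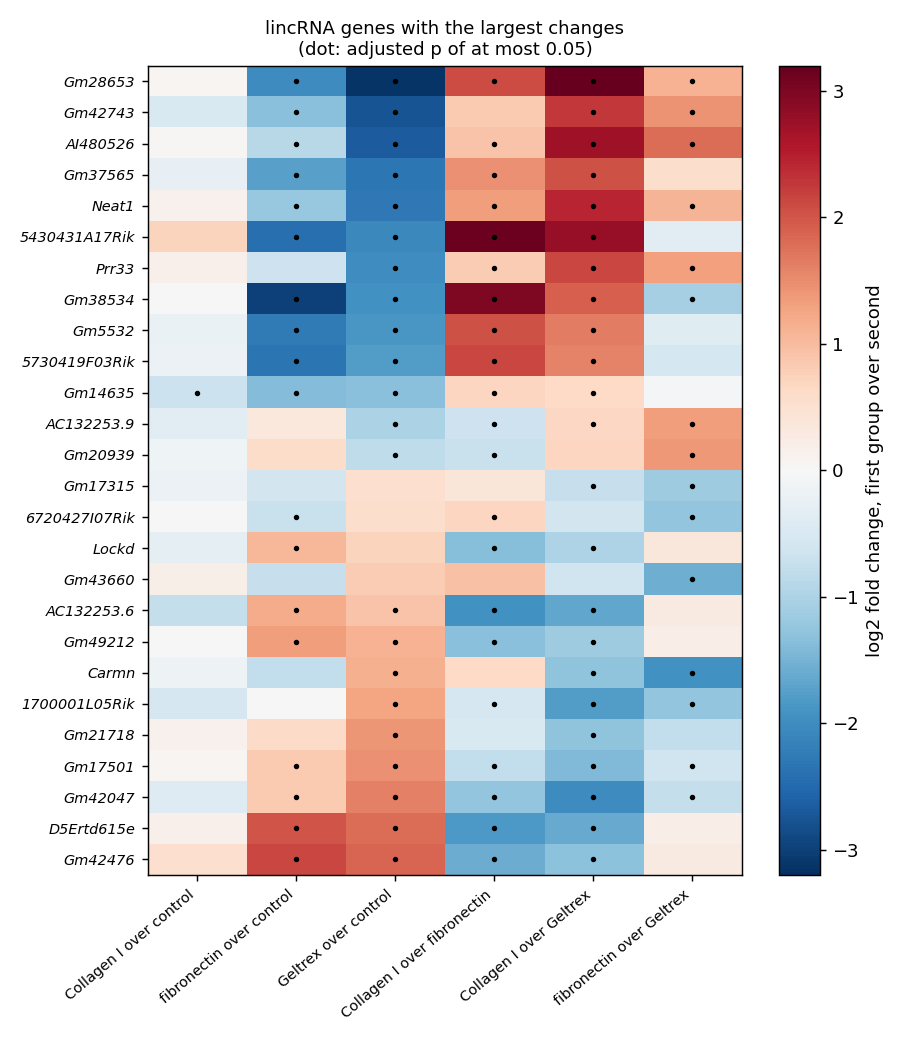
Log2 fold change of the first group over the second for the 26 members with the largest changes in any comparison, ordered by Geltrex™ over control. Dots mark an adjusted p of at most 0.05, and Collagen I over control has 1 dot, at *Gm14635*.

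Other gene groups moved on the same plates, and their part in the changes of the lincRNAs was not tested. Of 17 genes for muscle structure, all 17 fell on fibronectin and all 17 on Geltrex™ over control, with medians of -1.93 and -1.54, where 14.7% and 16.6% of all genes tested fell. *Myh3* fell by 2.04 on the log2 scale (SE 0.14, edgeR adjusted p = 3.72e-08) on fibronectin, and *Tnnt1*, the slow troponin T gene, fell by 2.33 on the log2 scale (SE 0.11, edgeR adjusted p = 1.92e-09) on Geltrex™. Of 12 cell cycle genes, 11 rose on fibronectin and 11 on Geltrex™, with medians of 1.50 and 1.57, where 17.1% and 16.4% of all genes tested rose. The DNA topoisomerase gene *Top2a* rose by 1.71 on the log2 scale (SE 0.10, edgeR adjusted p = 1.33e-08) on fibronectin and by 1.66 on the log2 scale (SE 0.10, edgeR adjusted p = 1.25e-08) on Geltrex™, and the mitotic checkpoint gene *Bub1* rose by 2.01 on the log2 scale (SE 0.14, edgeR adjusted p = 5.24e-08) and by 1.98 on the log2 scale (SE 0.14, edgeR adjusted p = 4.92e-08). All 9 tested interferon-response genes that are reported here rose on Geltrex™ over control, and the summed level of the list was 4.76 ± 0.316 CPM (SD, n = 3) in the control and 84.4 ± 25.6 CPM on Geltrex™. *Ifit3*, the most abundant of them, rose by 3.08 on the log2 scale (SE 0.19, edgeR adjusted p = 1.14e-08) on Geltrex™ against the control, and on fibronectin over control it had -0.52 (SE 0.22, edgeR adjusted p = 0.0875), which did not pass.

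The nearest protein-coding gene of a member lay at a median distance of 3880 bases. It overlapped the member in 33 cases, was within 5 kb in 103, and was transcribed away from a start within 1 kb in 27. For 158 members this neighbor was tested too. Across these members and their neighbors, which are not independent replicates, Spearman's correlation of log2 fold changes was 0.31 for Collagen I over control, 0.14 for fibronectin over control, and 0.19 for Geltrex™ over control (n = 158 pairs). Over the 113 of these with no shared exonic base, it was 0.33, 0.12, and 0.23. On fibronectin over control, it was 0.71 for 19 members within 5 kb downstream of a coding gene on the same strand, -0.16 for 27 divergent pairs within 1 kb, and -0.014 for 60 pairs over 10 kb apart. On Geltrex™ over control these values were 0.27, 0.33, and 0.14. In the same order they were 0.28, 0.40, and 0.33 on Collagen I over control. They were 0.74, 0.081, and 0.049 on Collagen I over fibronectin and 0.41, 0.27, and 0.17 on Collagen I over Geltrex™. Fibronectin over Geltrex™ gave 0.096, 0.24, and 0.13.

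On Geltrex™ over control, the neighbor passed for 41.5% of the 65 members that passed and 42.4% of all 158. For the divergent pairs within 1 kb it passed for 44.4% of the 9 members that passed and 29.6% of all 27. On fibronectin over control, the share was 38.6% of the 44 members that passed and 43.0% of all 158, and on fibronectin over Geltrex™ 40.6% of the 32 members that passed and 31.6% of all 158. It was 50.8% of 61 and 55.1% of all 158 on Collagen I over fibronectin, and 43.5% of 69 and 48.1% on Collagen I over Geltrex™. For the divergent pairs within 1 kb, the neighbor passed on fibronectin over control for 33.3% of 6 members that passed and 37.0% of all 27. Those shares were 60.0% of 10 and 70.4% on Collagen I over fibronectin, and 15.4% of 13 and 25.9% on Collagen I over Geltrex™. On fibronectin over Geltrex™ they were 66.7% of 6 and 37.0%. The differences between these shares were not tested.

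Single pairs differed. *Pdgfc*, a growth factor gene 2642 bases from *Gm42476*, rose with it on fibronectin (log2 fold change 0.75, SE 0.081, edgeR adjusted p = 4.91e-06) and Geltrex™ (log2 fold change 0.49, SE 0.081, edgeR adjusted p = 2.55e-04). *Incenp*, a chromosomal passenger gene 3301 bases from *AC132253.6* on the same strand, rose by 0.98 and 0.98 on the log2 scale. *Ccn1* stood at 283, 182, and 208 CPM in the control samples, 251, 191, and 285 CPM in the Collagen I samples, 62.5, 77.4, and 257 CPM in the fibronectin samples, and 1638, 1555, and 1608 CPM in the Geltrex™ samples. Its Geltrex™ samples were above all others, as were those of *Gm17501*, with 2.83 (SE 0.38, edgeR adjusted p = 3.24e-05) over the control, while on fibronectin over control it had -0.76 (SE 0.36, edgeR adjusted p = 0.122) and did not pass. *Cdkn1b* did not pass on fibronectin, at 0.065 (SE 0.076, edgeR adjusted p = 0.552), where its neighbor *Lockd* rose, and fell on Geltrex™ (log2 fold change -0.71, SE 0.077, edgeR adjusted p = 3.64e-06). *Acsl3*, a gene of fatty acid activation 48317 bases from *5730419F03Rik*, had 0.18 (SE 0.13, edgeR adjusted p = 0.313) on fibronectin and fell on Geltrex™ (log2 fold change -0.79, SE 0.13, edgeR adjusted p = 2.86e-04).

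Promoters were searched because several members moved together. RefSeq had 131 promoters, 250 bases before to 50 after a start, for 107 members, and 79 of these promoters had a start within 250 bases of the GENCODE start. Others lay far from it. Those matched to *Gm38399*, *4930516B21Rik*, and *4732487G21Rik* carry the RefSeq symbols *Nav1*, *Acvr2b*, and *Gpatch2l*, at 102750, 42652, and 64148 bases. The shares below include all of them and so are not shares of lincRNA promoters alone. On either strand, the E-box CAGCTG, a sequence that myogenic factors can bind, was in 19.1% of the 131 and in 16.3% of all 32851 promoters of that length. The looser E-box CANNTG, which contains every CAGCTG match, was in 74.8% and 72.3%. TGANTCA, the AP-1 motif, was in 9.16% and 7.81%, and the interferon motif GAAANNGAA in 11.5% and 8.56%. A match describes the letters only and is not a bound site.

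The 3 promoters below belong to members that fell on Geltrex™ over control, and none of a member that rose is printed. The promoter of *A930003A15Rik*, which was higher on Geltrex™, holds CAGCTG 2 times. Whether the motif goes with the direction of change was not tested. *Prr33* (log2 fold change -1.99, SE 0.28, edgeR adjusted p = 5.20e-05) and *Gm14635* (log2 fold change -1.33, SE 0.13, edgeR adjusted p = 1.47e-06) hold CAGCTG, shown in capitals, and *Gm5532* (log2 fold change -1.85, SE 0.21, edgeR adjusted p = 5.54e-06) does not. They lie at chr7:142506722-142507021, minus strand, chrX:12354947-12355246, minus strand, and chr1:155527062-155527361, minus strand of GRCm38.p6, and run 5′ to 3′ on the strand of the gene.
Prr33: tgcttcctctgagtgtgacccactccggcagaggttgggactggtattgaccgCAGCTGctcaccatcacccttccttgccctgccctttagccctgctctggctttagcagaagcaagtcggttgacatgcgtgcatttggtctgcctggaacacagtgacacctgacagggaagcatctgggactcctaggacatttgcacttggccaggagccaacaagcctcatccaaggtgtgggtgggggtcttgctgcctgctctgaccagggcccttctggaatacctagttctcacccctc
Gm14635: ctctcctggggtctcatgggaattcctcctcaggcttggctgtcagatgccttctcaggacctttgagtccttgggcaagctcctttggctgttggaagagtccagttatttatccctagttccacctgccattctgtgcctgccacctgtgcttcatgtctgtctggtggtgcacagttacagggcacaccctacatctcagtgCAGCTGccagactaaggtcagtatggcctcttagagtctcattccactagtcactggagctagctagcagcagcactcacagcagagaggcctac
Gm5532: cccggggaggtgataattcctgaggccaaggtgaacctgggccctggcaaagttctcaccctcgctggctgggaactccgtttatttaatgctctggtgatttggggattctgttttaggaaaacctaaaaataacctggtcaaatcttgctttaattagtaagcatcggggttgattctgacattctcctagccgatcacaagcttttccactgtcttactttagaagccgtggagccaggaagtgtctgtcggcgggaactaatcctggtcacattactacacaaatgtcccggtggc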

How the data were processed

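RNA from 12 samples was sequenced, 3 in each of 4 groups. Per the submitters' processing notes and the study's methods, the authors used FastQC, Trimmomatic, HISAT2, and featureCounts, and the deposited values are raw counts per gene. Genome build, annotation, and strand setting are not given in the sources used here. All gene identifiers matched GENCODE M21 (GRCm38).

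Genes were kept by edgeR's filterByExpr (minimum count 10, minimum total 15), scaled by TMM, and tested with edgeR 4.0.16 (R 4.3.3), 1 quasi-likelihood fit of 4 groups with 8 residual degrees of freedom and Benjamini-Hochberg adjustment over 14499 genes. A gene was called at an adjusted p of at most 0.05. Printed CPM use TMM-scaled totals, and the SE is the log2 fold change divided by the root of F. The procedure was tested on simulated data.

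Alternatives were DESeq2 1.42.0, RLE normalization, no filter, at least 10 counts in every sample, only the samples compared, the replicate number as a block, a 2-fold minimum, members with no shared exonic base, each sample left out, and the Geltrex™ samples summed into 1. Named members were the 10 highest by CPM and by CPM per kb, up to 5 highest and 5 lowest log2 fold changes per comparison among called members whose groups did not overlap, known lincRNAs, hosts of small RNAs, those at the threshold, and nearest coding genes of those named by fold change. Of the 10 highest by CPM, *Gm26917* and *Gm20300* have no values printed above. From the other lists, up to 4 genes were named by level or fold change. From the interferon-response list, 1 gene is not reported here, nor is 1 of the motifs searched, which was less frequent in promoters of members than in all promoters, so the motifs given do not stand for the whole search. *Prr33*, *Gm14635*, and *Gm5532* were chosen for their promoters after their values were seen. The members and lists were chosen with earlier results of these data known.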

Additional observations from a re-analysis of the deposited data

How the results depend on the processing

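Counts of members called were recomputed under each alternative, and every count not given here was within 1.5 times its main value. With no filter on low counts, 2 members were higher on Collagen I than in the control in edgeR, against 0 with the filter, and the cause was not tested. With the filter, 16 members were higher and 7 lower at an unadjusted p under 0.05, and DESeq2 called 0 and 1, where 6.46% and 8.32% and, in DESeq2, 0.865% and 2.66% of all genes were higher and lower. With only the samples of both groups in the fit, a fit with fewer samples, 0 were lower, against 1, and 0.222% of all genes were.

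A fold change of at least 2, which adds a condition to each call, left 0 lower on Collagen I over control. It left 8 higher and 21 lower on fibronectin over control, 15 and 31 on Geltrex™ over control, 20 and 8 on Collagen I over fibronectin, 32 and 11 on Collagen I over Geltrex™, and 12 and 6 on fibronectin over Geltrex™. Over all genes tested, the 2-fold condition left 0.0207% and 0.110% higher and lower on Collagen I, 2.42% and 4.23% on fibronectin, and 4.15% and 4.99% on Geltrex™ over control. It left 4.86% and 3.60% and 4.77% and 4.56% on Collagen I over fibronectin and over Geltrex™, and 1.72% and 2.26% on fibronectin over Geltrex™. With the 3 Geltrex™ samples summed into 1, that group has a single sample, which is assumed to vary like those of the other groups. Then 15 members were higher and 32 lower on Geltrex™ over control, 31 and 11 on Collagen I over Geltrex™, and 8 and 3 on fibronectin over Geltrex™. Of all genes tested in that fit, 7.30% and 5.97%, 5.57% and 8.03%, and 2.21% and 2.28% were higher and lower, so fewer calls were made over all genes too.

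The counts had the following ranges when 1 sample at a time was left out. The shares of all genes tested moved in these fits too and are given beside them. On Collagen I over control, 0 to 0 were higher and 0 to 1 lower, with 0 lower without control replicate 2 or Collagen I replicate 2. Of all genes, 0.0607% to 0.343% were higher and 0.236% to 1.23% lower. On fibronectin over control, 15 to 23 were higher and 27 to 43 lower, and on Geltrex™ over control 19 to 25 were higher and 42 to 66 lower. On Collagen I over fibronectin, 38 to 53 were higher and 17 to 26 lower, where 16.2% to 22.3% and 18.4% to 22.9% of all genes were. The ranges were 50 to 68 and 17 to 26 on Collagen I over Geltrex™, where 12.7% to 18.8% and 14.4% to 19.3% of all genes were. They were 18 to 33 and 7 to 16 on fibronectin over Geltrex™, where 5.96% to 12.1% and 5.60% to 11.2% of all genes were.

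The replicate numbers are shared between groups. Samples that carry one number were compared by how they deviated from the mean of their group. In each comparison, at least 1 of the 3 correlations was below 0.1, and on Collagen I over fibronectin they were 0.0473, 0.169, and 0.225. The numbers were not treated as pairs. In the fit with a replicate block, the members called in the 6 comparisons were 1, 58, 87, 79, 91, and 43, of which 1, 54, 85, 74, 89, and 41 were among the 1, 57, 85, 75, 89, and 46 called without it. The order is Collagen I, fibronectin, and Geltrex™ over control, Collagen I over fibronectin and over Geltrex™, and fibronectin over Geltrex™.

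Of 223 log2 fold changes of named members, 106 were called, 61 of these under every alternative that gave a value other than the 2-fold minimum. Another 45 were lost in at least 1, 14 of them only with the Geltrex™ samples summed. Over all alternatives, 3897 values stayed on their side of the threshold, 65 newly passed, and 154 no longer did. Over the alternatives run for it, the median log2 fold change of the members ranged from -0.034 to 0.11 on Collagen I over control, where it turned negative without control replicate 2 and was highest without control replicate 1, against 0.029. It ranged from -0.15 to -0.053 on fibronectin over control, against -0.12, from -0.27 to -0.15 on Geltrex™ over control, against -0.20, and from 0.11 to 0.24 on Collagen I over fibronectin, against 0.18. It ranged from 0.24 to 0.32 on Collagen I over Geltrex™, against 0.30, and from 0.054 to 0.12 on fibronectin over Geltrex™, against 0.087. The cause was not tested.

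The groups had 3 samples each, and how the count of a member bears on what can pass was not tested. Over all genes compared, the 3 Geltrex™ samples were closer together than those of other groups, so spreads within groups were unequal. Over the members, Collagen I replicates 1 and 2 had a lower chi-square per degree of freedom, 2.53, than any Geltrex™ pair, 2.70 to 10.8. Without a stated strand setting, members that share bases with a gene on the other strand cannot be separated from it. Counts are of genes, so isoforms were not separated, and mature small RNAs were not analysed here.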
